A study of Mus musculus with 6 samples.

Results

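The genes described here encode the proteasome, the barrel-shaped protease that breaks down ubiquitin-tagged proteins, and its interferon-induced immune form. Members were all genes on the arrays whose symbol begins with Psma, Psmb, Psmc, Psmd, Psme, Psmf or Psmg followed by a number. Of 45281 probes, 90 carried such a symbol, and they stood for 51 genes. Of these, 3 share the symbol but encode no proteasome subunit. They are Psmc3ip, a recombination factor named for its binding to an ATPase subunit, Psme3ip1, a partner of a proteasome activator, and Psme2b, a copy of the activator gene Psme2. The remaining 48 genes with 85 probes were grouped by role into the 20S core (15 genes), the 19S cap (17), the immune subunits (5), assembly chaperones with other activators and an inhibitor (10), and Psmb11, the core subunit of cortical thymic epithelium. A gene counted as measured when a probe was detected (detection p under 0.05) on at least 3 of the 6 arrays. In all, 41 of the 48 genes were measured, through 67 kept probes.

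In the proteasome, rings of alpha and beta subunits form the 20S core, in which Psmb5, Psmb6 and Psmb7 carry the proteolytic sites. The 19S cap recognises ubiquitin chains, unfolds substrates with its ATPase ring and feeds them into the core. Interferon-gamma induces Psmb8, Psmb9 and Psmb10, which take the places of Psmb5, Psmb6 and Psmb7 and form the immunoproteasome, whose peptides suit presentation by MHC class I. Blood cells, lymphocytes among them, carry the immunoproteasome without induction. When the proteasome is impaired, the transcription factor NFE2L1 raises the genes of its subunits through antioxidant response elements, the kind of DNA site at which the heme-binding repressor BACH1 also acts.

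The 6 arrays were hybridised with total RNA of sorted CD4+CD8+ double-positive (DP) thymocytes from mice on a C57BL/6 background. Of these, 3 arrays came from Flvcr-deleted (Flvcr-/-) and 3 from control (Flvcr+/+) cells. Flvcr1 encodes a heme exporter, so the comparison asks what its loss does to the transcripts of DP cells. The sources used here do not give the way or the cells in which the gene was deleted, the age of the mice or the number of animals. A p-value thus reflects spread among the 6 samples, which may be technical.

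The arrays were alike in the number of probes detected, 15307 to 15792 on each. Pairwise r was 0.977 to 0.986 within a genotype and 0.978 to 0.984 across genotypes. Precision is limited by there being only 6 arrays. The Flvcr1 probe read 9.92, 10.45 and 10.13 (log2) on Flvcr-deleted arrays, against 11.01, 11.28 and 10.93 on control arrays, a log2 fold change of -0.91 (SE 0.157, limma adjusted p = 0.0317). The sources used here do not say where in Flvcr1 the probe or the deletion lies. Of the markers listed for DP cells, Cd4, Cd8b1, Rag1, Rag2 and Ptcra were detected on all 6 arrays, whereas Cd8a was detected on 0 arrays. Detection in bulk RNA does not show the purity of the sort.

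No proteasome gene passed the test between genotypes. In bulk RNA, fewer cells of a type and less RNA per cell cannot be told apart. Of the 41 measured genes, 0 had a limma adjusted p under 0.05, against 13 of 8808 genes tested in all (0.148%, of which 2 or 0.0227% higher and 11 or 0.125% lower; 4 higher and 11 lower with arrays scaled to a common median). At an unadjusted p under 0.05 there was 1 proteasome gene, Psmb10, which was higher, against 4.63% of all genes in either direction and 2.6% higher. The fold changes were small, with 18 genes above 0 (all genes, 51.8%), 23 below 0 and a median of -0.02 on the log2 scale (all genes, 0.01). The median size of the change, without its sign, was 0.07, against 0.12 over all genes. In the middle range of the members' brightness (mean log2 intensity 10.46 to 12.73) it was 0.05 over 21 proteasome genes, against 0.08 over all 1682 genes in that range. Groups did not overlap for 3 genes, Psmb10, Psmc2 and Psme2, all higher in Flvcr-deleted cells, and for 0 genes that were lower. Over all genes 9.59% did not overlap, 5.23% higher and 4.36% lower.

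The replicates set bounds on the changes that could have been missed. For 34 of the 41 genes (82.9%) the 95% confidence interval of the fold change lay within 1.5-fold in both directions, against 57.2% of all genes. In the middle range of brightness it did so for 20 of the 21 proteasome genes (95.2%), all but Psmb10, against 94.1% of all genes in that range. The 7 genes with wider intervals were Psmc6, Psmd2, Psmd6, Psmb10, Psme2, Psmd5 and Psmd9. For these a change of more than 1.5-fold was not excluded by the interval. The counts rest on the brightest probe of each gene. Dimmer kept probes of Psmd7, Psmd11, Psmd12 and Psme4 had intervals reaching 1.51-fold, 1.64-fold, 1.91-fold and 2.31-fold. A dimmer probe of Psmf1 had an interval reaching down to 0.521-fold. The within-group SD of a proteasome gene had a median of 0.14 on the log2 scale, against 0.21 over all genes. In the middle range of brightness it was 0.14 for proteasome genes, against 0.15 for all genes.

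**Figure D1:**
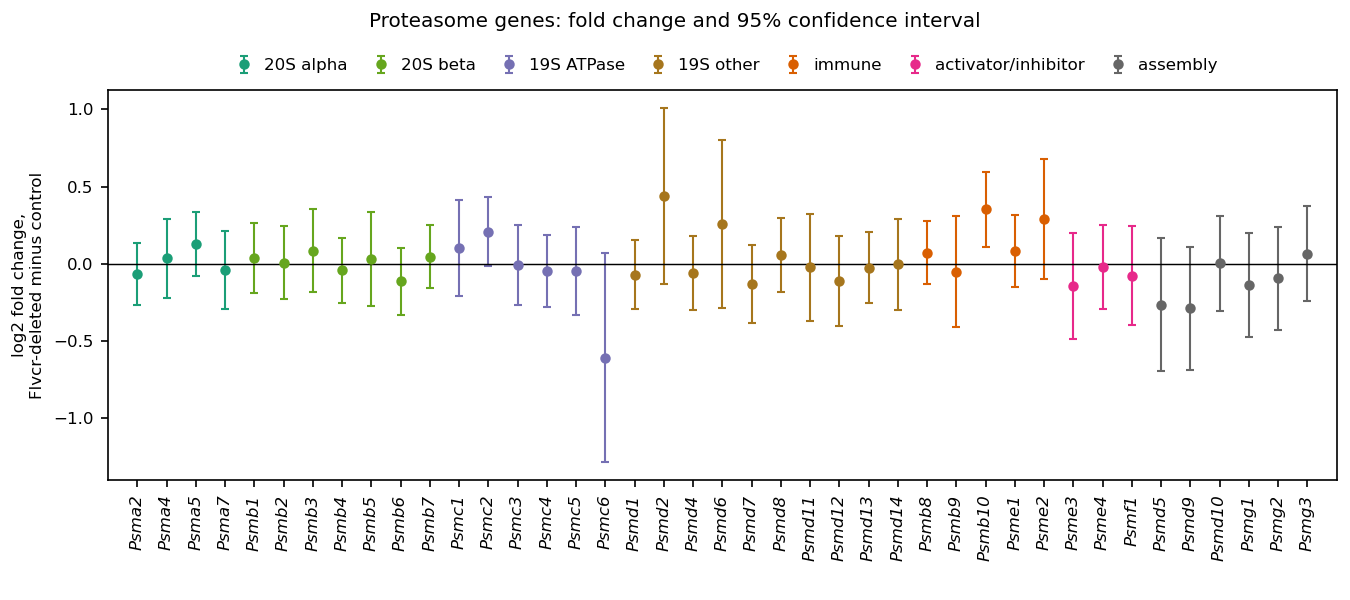
Log2 fold changes (Flvcr-deleted minus control, y axis) of the 41 measured proteasome genes (x axis, coloured by class), with points for the limma estimate and bars for its 95% confidence interval. All intervals but that of Psmb10 cross 0, and the intervals of the 11 genes of the 20S core lie between 0.795-fold and 1.28-fold on the linear scale.

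The 20S core showed the smallest range of changes of the 4 classes, and was also the brightest. Its mean on Flvcr-deleted arrays was 12.77, against 10.67 for the 19S cap, 11.47 for the immune subunits and 9.85 for the assembly class. The part of brightness in the range was not tested. Of the 15 core genes 11 were measured, with 7 above 0, 4 below 0, a median log2 fold change of 0.03 and a range of -0.12 to 0.13. The median crossed 0 when single arrays were left out, so it has no settled direction. Every interval of the 11 genes lay between 0.795-fold and 1.28-fold. In the alpha ring, which gates entry to the core, Psma2, Psma4, Psma5 and Psma7 were measured. Psma5 had the smallest unadjusted p of the core, and read 13.17, 13.13 and 13.08 on Flvcr-deleted arrays, against 12.97, 13.11 and 12.92 on control arrays. These groups overlapped, and the log2 fold change was 0.13 (SE 0.097, limma adjusted p = 1.00). Psma1, Psma3 and Psma6, whose proteins are fixed parts of the alpha ring, were detected on 0 arrays, as was the germ-cell subunit Psma8.

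All 7 beta subunits of the constitutive core were measured. Psmb5, which carries the chymotrypsin-like activity, read 10.68, 11.14 and 10.71 on Flvcr-deleted arrays, against 10.80, 10.80 and 10.84 on control arrays. Flvcr-deleted replicate 2 stood above the other arrays and the log2 fold change was 0.03 (95% confidence interval -0.27 to 0.34), or -0.12 without that array. Psmb6, with the caspase-like activity, read 12.77, 12.69 and 12.85 on Flvcr-deleted arrays and 12.91, 12.78 and 12.96 on control arrays, with a log2 fold change of -0.12 (interval -0.33 to 0.10). Its groups overlapped. Psmb7, with the trypsin-like activity, read 12.87, 12.93 and 12.88 on Flvcr-deleted arrays and 12.90, 12.88 and 12.76 on control arrays, a log2 fold change of 0.05 (interval -0.16 to 0.25). The structural beta subunits Psmb1, Psmb2, Psmb3 and Psmb4 had log2 fold changes of 0.04, 0.01, 0.08 and -0.04.

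The 19S cap had no common direction. Of 17 genes 16 were measured, with 5 above 0 and 11 below 0 and a median log2 fold change of -0.02. The median was 0.01 with array weights and 0.04 when probes of a gene were averaged, so its sign depends on these choices. Psmd3, a subunit of the cap's lid, was detected on 0 arrays. Among the ATPases, which unfold the substrate, Psmc2 read 12.78, 12.87 and 12.83 on Flvcr-deleted arrays, against 12.47, 12.63 and 12.75 on control arrays. Its groups did not overlap, though the nearest arrays lay close together. The log2 fold change of Psmc2 was 0.21 (SE 0.105, limma adjusted p = 1.00), and 0.13 without control replicate 1. Its dimmer probe gave 0.12 with overlapping groups.

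Psmc6, another ATPase of the ring, had the largest estimate of the class and the least signal. It read 5.89, 4.995 and 5.34 on Flvcr-deleted arrays and 6.38, 6.17 and 5.50 on control arrays, and its probe was detected on 1 Flvcr-deleted and all 3 control arrays. The log2 fold change was -0.61 (SE 0.317, interval -1.29 to 0.07, limma adjusted p = 1.00), and -0.40 without Flvcr-deleted replicate 2. Without background correction both the estimate and its SE were smaller (-0.21, SE 0.112). The 3 control detections alone would have passed it into the test. Psmc1, Psmc3, Psmc4 and Psmc5 had log2 fold changes of 0.10, -0.01, -0.05 and -0.05.

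The scaffold and receptor subunits of the cap were spread on both sides of 0. Psmd2, a scaffold of the cap like Psmd1, read 6.09, 6.21 and 6.68 on Flvcr-deleted arrays, against 5.55, 6.10 and 6.01 on control arrays. Its groups overlapped and the probe lay near background (log2 fold change 0.44, interval -0.13 to 1.01). The value was 0.26 without Flvcr-deleted replicate 3, 0.27 without control replicate 1 and 0.70 with array weights. Without background correction both the estimate and its SE were smaller (0.17, SE 0.107, against an SE of 0.268). Psmd1 stood at -0.07 and the ubiquitin receptor Psmd4 at -0.06. Psmd14, the deubiquitinase that removes the chain before degradation, stood at 0.00, and its partner Psmd7 at -0.13 (interval -0.38 to 0.12), or 0.04 when its probes were averaged. The lid subunits Psmd6, Psmd8, Psmd11, Psmd12 and Psmd13 had log2 fold changes of 0.26, 0.06, -0.02, -0.11 and -0.03, none past the test.

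Of the 5 immune subunits 4 were above 0, with a median log2 fold change of 0.08 and a range of -0.05 to 0.35, and 0 passed the test (limma, smallest adjusted p = 0.865). Psmb10, the immune replacement of Psmb7, differed most. It read 11.82, 11.70 and 11.88 on Flvcr-deleted arrays, against 11.47, 11.39 and 11.49 on control arrays. All 3 Flvcr-deleted values lay above the control values. The log2 fold change was 0.35 (SE 0.113, interval 0.11 to 0.60), or 1.28-fold, with an unadjusted p of 0.00723 and a limma adjusted p of 0.865. Over the 17 alternatives the log2 fold change of Psmb10 ran from 0.25 to 0.41 and the smallest limma adjusted p was 0.162, with array weights. Its other kept probe, with different values, read 11.56, 11.58 and 11.69 on Flvcr-deleted arrays and 11.41, 11.51 and 11.49 on control arrays. Those groups did not overlap either, but the log2 fold change was 0.14 (SE 0.113, interval -0.10 to 0.38).

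The other immune members differed less or varied more. Psmb8, which replaces Psmb5, read 13.64, 13.45 and 13.53 on Flvcr-deleted arrays and 13.38, 13.49 and 13.54 on control arrays, a log2 fold change of 0.07 (interval -0.13 to 0.27). Psmb9, which replaces Psmb6, read 11.17, 11.19 and 11.24 on Flvcr-deleted arrays and 11.17, 10.88 and 11.69 on control arrays. The Flvcr-deleted arrays stood close together (SD 0.04) while control replicates 2 and 3 lay far apart (SD 0.41), and the log2 fold change was -0.05 (interval -0.41 to 0.31). Without control replicate 3 the log2 fold change was 0.17, and with array weights 0.02, so its sign rests on control replicate 3.

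Psme1 and Psme2 encode the alpha and beta chains of the interferon-induced activator ring that opens the core. Psme1 read 12.60, 12.34 and 12.41 on Flvcr-deleted arrays and 12.28, 12.44 and 12.38 on control arrays, with overlapping groups and a log2 fold change of 0.08 (interval -0.15 to 0.32). Psme2 read 8.28, 8.24 and 8.63 on Flvcr-deleted arrays and 8.11, 7.98 and 8.19 on control arrays. Its groups did not overlap, though the nearest arrays lay close together. The log2 fold change of Psme2 was 0.29 (SE 0.183, interval -0.10 to 0.68, limma adjusted p = 1.00), and 0.17 without Flvcr-deleted replicate 3. Psme2b, a copy that a probe for Psme2 may not tell apart, stood at 0.10 on its own probe.

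**Figure D2:**
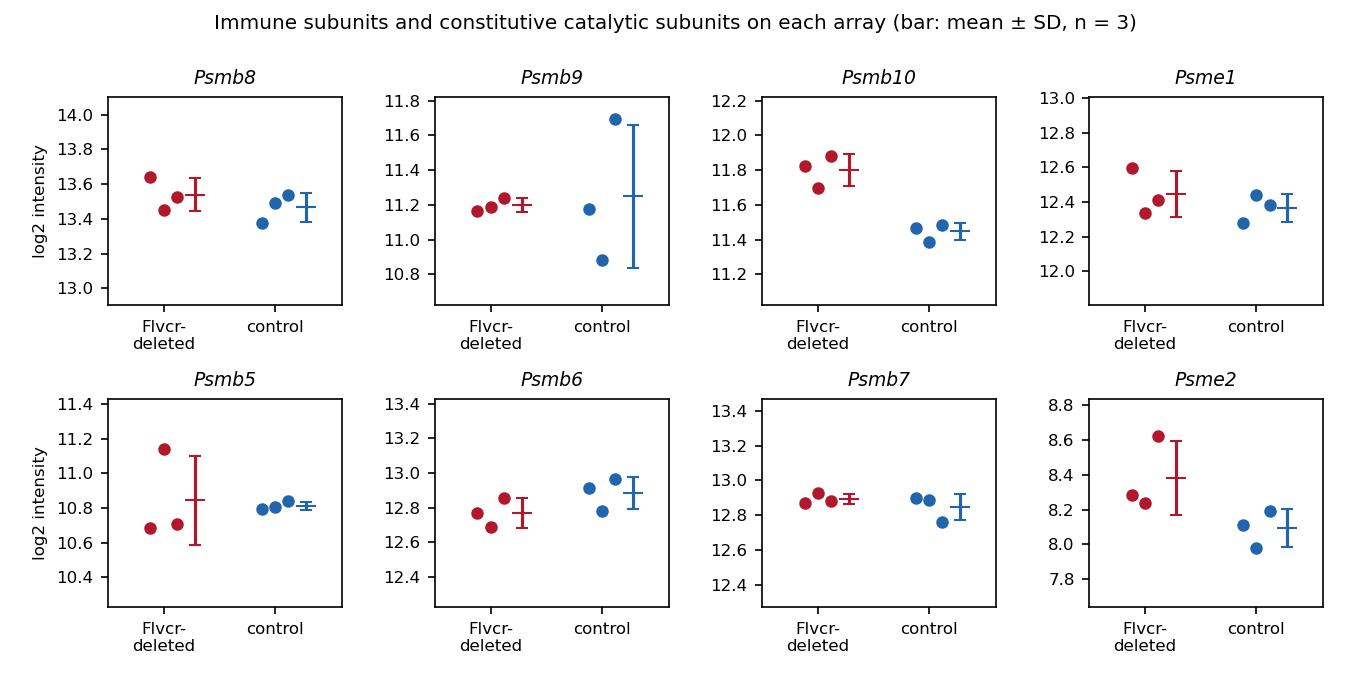
Log2 intensities (y axis, a span of 1.2 in every panel) of the 5 immune subunits and of Psmb5, Psmb6 and Psmb7 on 3 Flvcr-deleted (red, left) and 3 control arrays (blue, right), with points for replicates 1 to 3 and bars for the mean and SD. Psmb10 and Psme2 are separated between the groups, and Psmb9 spreads widest among the control arrays.

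Side by side, each immune catalytic subunit and the constitutive one it replaces gave these values. Psmb8 and Psmb5 had log2 fold changes of 0.07 and 0.03, Psmb9 and Psmb6 of -0.05 and -0.12, and Psmb10 and Psmb7 of 0.35 and 0.05. The difference within a pair was not tested. On the level of array means, the immune class read 11.50, 11.38 and 11.54 on Flvcr-deleted arrays and 11.28, 11.23 and 11.46 on control arrays. Flvcr-deleted replicate 2 lay below control replicate 3, so the groups overlapped.

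The upstream sequences of these genes are shown because interferon and NFE2L1 are known to act upstream of immune and constitutive subunit genes, so the letters can be set beside the values above. They are from RefSeq (GRCm38.p6), read 5′ to 3′ on the stated strand, and capitals mark matches to the 5 motifs named below. Psmb9 and the peptide transporter gene Tap1 start back to back on chromosome 17, and the first sequence is the whole 225 bases between their starts (chr17:34187331-34187555, plus strand). The others are the 250 bases before the start of Psmb8 (chr17:34197945-34198194, plus strand), Psmb10 (chr8:105938393-105938642, minus strand), Psmb5 (chr14:54617996-54618245, minus strand) and Psmb6 (chr11:70525107-70525356, plus strand).
Psmb9 to Tap1: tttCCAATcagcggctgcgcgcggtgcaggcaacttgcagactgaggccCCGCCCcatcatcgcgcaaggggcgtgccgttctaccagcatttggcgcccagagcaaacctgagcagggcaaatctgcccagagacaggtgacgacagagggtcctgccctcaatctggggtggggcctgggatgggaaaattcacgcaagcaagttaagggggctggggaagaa
Psmb8: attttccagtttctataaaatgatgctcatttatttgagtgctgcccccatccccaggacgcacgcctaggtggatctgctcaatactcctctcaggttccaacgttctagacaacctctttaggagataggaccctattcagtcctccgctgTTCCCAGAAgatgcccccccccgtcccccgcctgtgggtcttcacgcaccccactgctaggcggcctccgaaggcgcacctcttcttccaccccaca
Psmb10: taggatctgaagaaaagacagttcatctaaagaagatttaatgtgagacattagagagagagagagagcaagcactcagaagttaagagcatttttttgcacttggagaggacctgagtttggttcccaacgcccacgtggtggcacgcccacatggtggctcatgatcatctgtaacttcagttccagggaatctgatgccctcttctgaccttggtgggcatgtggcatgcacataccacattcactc
Psmb5: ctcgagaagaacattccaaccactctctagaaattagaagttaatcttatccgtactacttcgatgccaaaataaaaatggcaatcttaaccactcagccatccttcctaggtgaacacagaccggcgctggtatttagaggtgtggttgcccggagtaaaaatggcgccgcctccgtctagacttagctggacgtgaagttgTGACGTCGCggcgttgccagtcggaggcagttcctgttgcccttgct
Psmb6: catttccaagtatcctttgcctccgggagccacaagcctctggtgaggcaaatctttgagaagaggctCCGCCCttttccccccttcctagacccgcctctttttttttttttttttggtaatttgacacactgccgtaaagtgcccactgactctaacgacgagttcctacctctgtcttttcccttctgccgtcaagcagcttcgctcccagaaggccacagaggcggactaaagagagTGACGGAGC

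The motifs were searched on both strands of windows of 300 bases, 250 before and 50 after each start, which were at hand for 40 of the 48 genes in 43 windows. The antioxidant response element core (TGACNNNGC) was in 6 of the 43 windows (14.0%, against 12.4% of 32851 windows of all genes), those of Psmb5, Psmb6, Psmc6, Psmd9, Psmd12 and Psme4. In the immune windows it was in 0 of 6. The core of the interferon-stimulated response element (GAAA, any 2 bases, GAAA) was in 5 windows (11.6%, against 3.44%), of which Psme1 was the immune member. The gamma-activated site (TTCNNNGAA) was in 3 windows (6.98%, against 8.30%), of which Psmb8 was the immune member. The GC box (GGGCGG) was in 24 windows (55.8%, against 35.7%) and the CCAAT box (CCAAT) in 14 (32.6%, against 37.4%). The printed stretch between Psmb9 and Tap1 holds a CCAAT box and a GC box, that of Psmb6 a GC box and an antioxidant response element core, and that of Psmb10 none of the 5. A match is a description of the letters and does not show a bound site.

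Psmb9 and Tap1 share a start region, and their values over the arrays can be set side by side. Tap1 read 8.87, 8.62 and 8.94 on Flvcr-deleted arrays and 8.99, 8.81 and 8.90 on control arrays, and its Pearson r with Psmb9 over the 6 arrays was 0.23. Psmb9 and Psmb8, neighbours in the MHC, had an r of 0.19. Higher values were those of Psmb8 with Psme1 (0.92) and Psmb10 with Psme2 (0.88). Group means were not removed for these r. Psmb10 and Psme2 were both higher in Flvcr-deleted cells without overlap, which by itself raises their r. The 3 genes most like each immune catalytic subunit in pattern lay outside the pathway. They were Suclg1 (0.99), Camkk2 (0.98) and Gsn (0.98) for Psmb8, Mphosph6 (0.99), Sec61b (0.98) and Tspan2 (0.98) for Psmb9, and Xkr8 (0.99), Gsdme (0.99) and Slc1a5 (0.98) for Psmb10. With 6 arrays and 8808 genes such values describe these arrays only, and the arrays of a gene pair share their RNA and normalization.

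The assembly chaperones, other activators and the inhibitor were mostly below 0, by small amounts. Of 10 genes 9 were measured, 2 above 0 and 7 below 0, at a median log2 fold change of -0.10 and 0 past the test (limma, all adjusted p = 1.00). Psmd9, a chaperone of the cap's base, read 8.21, 7.75 and 7.87 on Flvcr-deleted arrays and 8.23, 8.19 and 8.28 on control arrays. Flvcr-deleted replicate 1 overlapped the control arrays, and the log2 fold change was -0.29 (interval -0.69 to 0.11). Psmd5, another chaperone of the base, read 7.89, 7.96 and 7.43 on Flvcr-deleted arrays and 8.10, 7.85 and 8.12 on control arrays, at -0.27 (interval -0.70 to 0.17), or -0.10 without Flvcr-deleted replicate 3. Psmd10, a further chaperone of the base, stood at 0.00. Of the chaperones of the core, Psmg1, Psmg2 and Psmg3 stood at -0.14, -0.10 and 0.06, and Psmg4 was detected on 0 arrays. Psme3 and Psme4, which encode nuclear activators of the core, stood at -0.15 and -0.02, and Psmf1, known as an inhibitor of the core in the test tube, at -0.08.

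As a class mean these 9 genes read 9.87, 9.87 and 9.79 on Flvcr-deleted arrays and 9.89, 9.88 and 10.08 on control arrays. The groups did not overlap, but only control replicate 3 stood clearly apart. Without that array the median log2 fold change of the class was 0.01. The 20S core averaged 12.81, 12.73 and 12.79 on Flvcr-deleted arrays and 12.72, 12.75 and 12.82 on control arrays. The 19S cap averaged 10.64, 10.68 and 10.70 on Flvcr-deleted arrays and 10.65, 10.70 and 10.69 on control arrays. Both classes overlapped between the groups, and their array means spanned 0.10 and 0.05 over the 6 arrays, against 0.30 for the immune subunits and 0.29 for the assembly class.

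**Figure D3:**
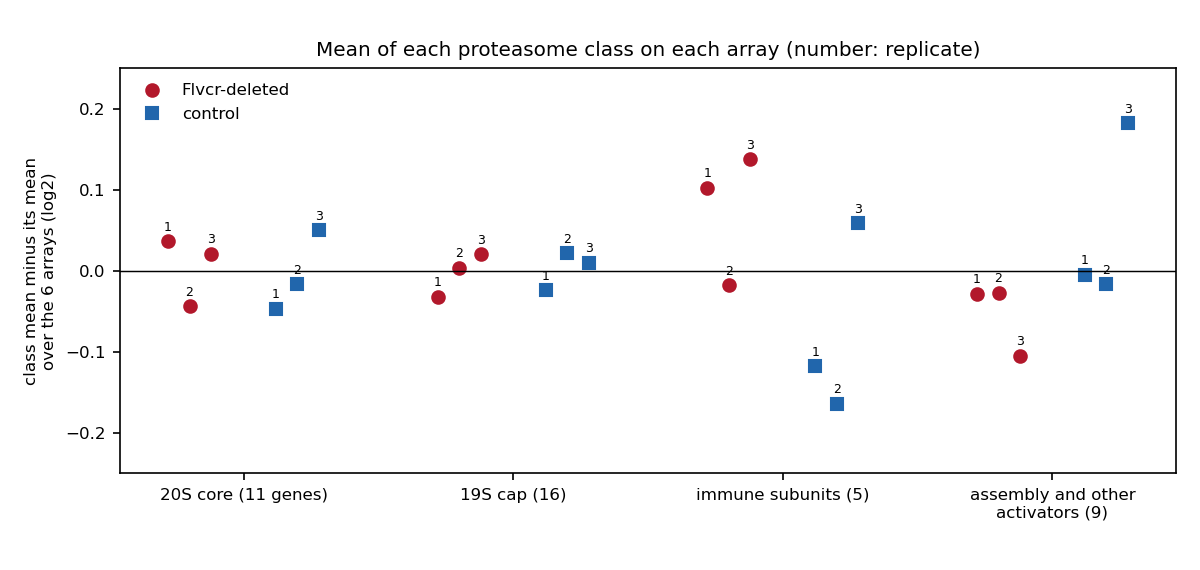
Mean log2 intensity of each proteasome class on each array, as the difference from its mean over the 6 arrays (y axis), for Flvcr-deleted (red circles, left) and control arrays (blue squares, right), numbered by replicate. The 20S core and the 19S cap stay within 0.10 and 0.05 across arrays, and control replicate 3 stands high in the assembly class.

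Within groups, core and cap genes showed little common variation. After each group's mean was removed, the median Pearson r between pairs of genes was 0.10 within the 20S core (55 pairs), -0.06 within the 19S cap (120 pairs), 0.02 between core and cap (176 pairs) and 0.31 among the immune subunits (10 pairs). These values share 6 arrays, and normalization acts on all of them.

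Probes of the same gene gave a further measure of error. Of 20 genes with several kept probes, 12 had probes that differed in sign. They were Psmb7, Psmc5, Psmd1, Psmd6, Psmd7, Psmd10, Psmd11, Psmd12, Psmd14, Psme1, Psme4 and Psmg2. The widest gaps were those of Psmd12, with log2 fold changes of -0.11 on its brightest and 0.43 on its dimmer probe, and Psme4, with -0.02 and 0.52. For Psme4 the dimmer probe was detected on 2 Flvcr-deleted arrays and 1 control array. The probe pairs of Psma7, Psmb2 and Psmc4 lay 0.03, 0.01 and 0.05 apart. Over all 67 kept probes, 34 read above 0, and 1 had an unadjusted p under 0.05.

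**Figure D4:**
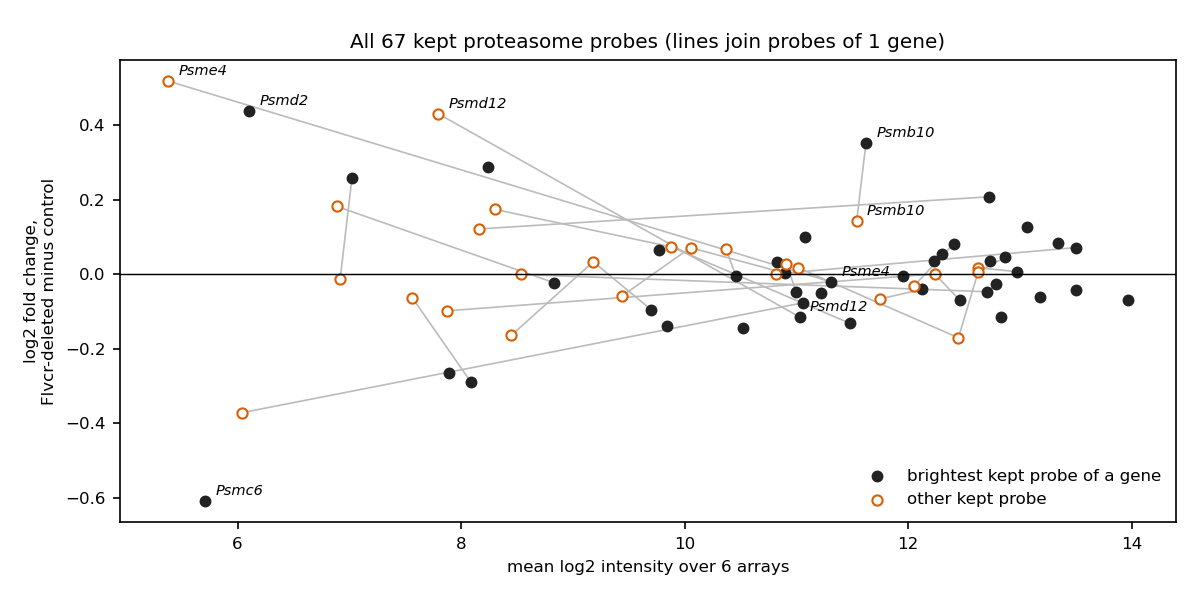
Log2 fold change (y axis) against mean log2 intensity (x axis) of the 67 kept proteasome probes, with filled points for the brightest probe of a gene, open points for its other probes and lines joining probes of 1 gene. Most bright probes lie close to 0, and the values farthest from 0 other than Psmb10 belong to probes with a mean below 9.

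The other genes of the pathway did not pass either. Of the 6 measured proteasome-bound and assembly factors (of 11 listed), 0 passed higher and 0 lower (median -0.03). Pomp, the maturation chaperone of the core, read 13.30, 13.29 and 13.31 on Flvcr-deleted arrays and 13.29, 13.27 and 13.36 on control arrays, at 0.00 (interval -0.20 to 0.19). Usp14, a deubiquitinase on the cap, had the smallest unadjusted p of the list, at 0.38 (interval -0.17 to 0.94), and Ecpas, a tether of core and cap, stood at -0.08. Of the 8 ubiquitin shuttles and p97 cofactors (of 10), 0 passed in either direction (median -0.07), with the segregase Vcp at -0.15 and the shuttle Rad23b at 0.22. Of the 6 genes for ubiquitin and its activating enzymes 0 were measured.

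Among the regulators of proteasome genes, 7 of 10 were measured, 0 passed in either direction and the median was 0.16. Nfe2l1, which drives the subunit genes, read 10.12, 10.15 and 9.87 on Flvcr-deleted arrays and 10.28, 10.13 and 9.97 on control arrays, at -0.08 (interval -0.40 to 0.23). Bach1, the heme-binding repressor, read 8.34, 8.37 and 8.26 on Flvcr-deleted arrays and 8.34, 8.51 and 8.05 on control arrays, at 0.03 (interval -0.36 to 0.41). Both overlapped between the groups. The smallest unadjusted p values of this list were those of Bach2, a related repressor of lymphocytes, at -0.31, and Keap1, which holds NFE2L2 in check, at 0.18.

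The genes that use proteasome products or share its interferon control gave the same count. Of 9 measured class I presentation genes (of 11), 0 passed in either direction (median -0.05), with the class I heavy chains H2-K1 and H2-D1 at -0.29 and 0.11. Of 16 measured interferon signalling genes (of 18), 0 passed in either direction (median 0.01). The smallest unadjusted p values were those of Igtp, an interferon-induced GTPase, at -0.43 (SE 0.114, limma adjusted p = 0.418), and Irf8, a factor of myeloid and B cells, at 0.79 (SE 0.323). Irf8 was detected on 4 arrays, near background. Irf1, which acts on the immune subunit genes, stood at -0.13 (interval -0.47 to 0.22).

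Markers of other cells moved with some of these values, and their part in them was not tested. For thymic epithelium 2 of 9 markers were measured, Ccl25 and Ctsl, with a mean of 5.95 to 6.55 on Flvcr-deleted arrays and 5.63 to 5.85 on control arrays. Like Psmb10 this mean did not overlap between the groups, but Ccl25 and Ctsl each overlapped on their own. Ctsl was detected on only 3 arrays. Over all genes 9.59% did not overlap. The defining markers Foxn1, Prss16, Epcam, Krt5 and Krt8 were detected on 0 arrays, and Psmb11 on 1 Flvcr-deleted array. For dendritic cells 6 of 10 markers were measured, with a mean of 7.06 to 7.57 on Flvcr-deleted arrays and 7.49 to 7.77 on control arrays. The highest was on control replicate 3, where Psmb9 was also highest. All 6 were below 0, with a median log2 fold change of -0.12 and 0 past the test. The most abundant were Cst3 (-0.07) and H2-Ab1 (-0.10), and the farthest from 0 were Cd74 (-1.13, without overlap) and H2-Eb1 (-0.66). Itgax, Flt3 and Zbtb46 were detected on 0 arrays. Mature single-positive and egress genes (6 of 10 measured) had a mean of 6.54 to 6.78 on Flvcr-deleted arrays and 6.96 to 7.40 on control arrays, again highest on control replicate 3. Of the 6, 5 were below 0, with a median log2 fold change of -0.56 and 0 past the test. At an unadjusted p under 0.05 (limma) there were 5 of the 6, against 4.63% of all genes. Groups did not overlap for 1 that was higher and 3 that were lower, against 5.23% and 4.36% of all genes. Nkg7 stood at -1.06, Ccr7 at -0.76, Klf2 at -0.67, Itgb7 at -0.44 and Il7r at -0.36, and H2-Q2, the most abundant, at 0.55. Nkg7 and Il7r were detected on only 3 arrays and Ccr7 on 4, so these values lie near background. Handling response genes (9 of 12) averaged 8.94 to 9.43 on Flvcr-deleted arrays and 9.12 to 10.19 on control arrays. Of the 9, 8 were below 0, with a median log2 fold change of -0.46 and 0 past the test, and Fos (-1.12), Jun (-0.81) and Dusp1 (-0.79) were farthest from 0. The most abundant were Egr1 (0.01) and Nfkbia (-0.07). Mitotic genes (10 of 15) averaged 9.92 to 10.88 on Flvcr-deleted arrays and 9.73 to 10.93 on control arrays. Their mean was also highest on control replicate 3. Of the 10, 9 were above 0, with a median log2 fold change of 0.11 and 0 past the test, and the most abundant were Birc5 (-0.12), the 1 below 0, and Top2a (0.19). The globin genes Hbb-b1 and Hba-a1 carried the erythroid list (3 of 10), which averaged 7.07 to 10.002 on Flvcr-deleted arrays and 8.45 to 9.95 on control arrays. Of the B cell markers 2 of 7 were measured, Igkc (-3.36) and Cd79b (0.26), which went in opposite directions. Igkc passed the test (limma adjusted p = 5.09e-07) and did not overlap between the groups, whereas Cd79b did not pass and overlapped. Their mean was 9.36 to 9.51 on Flvcr-deleted arrays and 10.74 to 11.13 on control arrays. Ms4a1 and Pax5 were detected on 0 arrays. Of the macrophage markers 1 of 7 was measured, Lyz2 (0.05), while Adgre1, Cd68 and C1qb were detected on 0 arrays.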

How the data were processed

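Per the file headers, one deposited table gave linear probe intensities of 6 Illumina arrays without scaling, and a detection p-value for each. Log2 values deposited in another table equalled the log2 of quantile-normalized intensities to within 5.0e-09. The submitters' processing notes list lumi.

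Probes were named from the platform annotation with symbols updated through RefSeq (GRCm38.p6), by gene identifier for 28620 probes, accession for 2637, current symbol for 2128 and unique synonym for 2343, while 56 kept their symbol. In all, 35784 of 45281 probes had 1 symbol, 0 several and 9497 none. Updating added 2 proteasome probes.

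Intensities were background-corrected, quantile-normalized and log2-transformed with neqc (offset 16) of limma 3.58.1 in R 4.3.3, whose negative controls were derived from detection p-values. Probes detected (0.05) on 3 or more arrays were tested (15448 probes, 8808 genes), and the probe with the highest mean stood for its gene. Groups were compared by lmFit and eBayes (trend on, two-sided), adjusted by Benjamini-Hochberg over all kept probes at 0.05. Confidence intervals (95%) are from the moderated fit, and positive log2 fold changes mean higher in Flvcr-deleted cells. The offset understates changes of dim probes. The procedure was tested on simulated arrays.

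Members, lists and tests were chosen with earlier results of these data known. Log2 fold changes with an interval or SE were given for immune subunits, Psmb5, Psmb6, Psmb7 and members with the smallest p. For pathway lists at least the log2 fold change was given for the 2 smallest p. Tap1, Pomp, Ecpas, Nfe2l1, Bach1 and Irf1 were named for their role. Alternatives changed background correction, normalization, probe filter, variance model, weights, replicate block, probe choice, an Xist covariate and the arrays included.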

Additional observations from a re-analysis of the deposited data

How the results depend on the processing

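Over the 17 alternatives the count of proteasome genes past an adjusted p of 0.05 (limma) stayed at 0, as did the counts of the 5 pathway lists with measured genes. At an unadjusted p under 0.05 (limma) there were 6 of 41 proteasome genes with array weights, against 988 of all 8808 genes. With no detection filter there were 3 of 48, against 962 of 20289 genes. With an array left out there were 1 to 3, against 226 to 655 of all genes. Otherwise there was 1, against 353 to 481 of all genes. At the adjusted p the count over all 8808 genes, 13, was 1 with no variance trend and 30 (10 higher, 20 lower) under array weights. It was 2 to 12 with each array left out. The median log2 fold change of the 19S cap, -0.02, was 0.0141 under array weights and 0.0353 when probes of a gene were averaged, and -0.0442 to 0.00153 with each array left out. That of the assembly class, -0.10, ran from -0.158 to 0.0139 with each array left out, the upper end without control replicate 3. The cause was not tested. That of the 20S core was above 0 under 14 of the 17 alternatives. The immune median stayed above 0 under all 17 (0.02 to 0.17). Not all of the 17 could move these medians. The variance model and the replicate block leave the fold changes as they are. The deposited log2 values repeat the fit without background correction. The replicate numbers were shared between groups. The correlations of same-numbered arrays' deviations from their group means were -0.15, 0.09 and 0.11. Those of unlike-numbered arrays ran from -0.19 to 0.08. These values do not settle whether the arrays were paired, and the main fit took them as unpaired. With a replicate block 0 proteasome genes and 12 genes in all passed, and Psmb10 had an adjusted p of 0.703. Signal near background limits Psmc6, Psmd2 and Psmd6, and genes with no detected probe were not tested.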
